A study of Mus musculus with 26 samples.

Results

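Proteasome subunit genes were followed across 12 groups of mouse pancreatic islets on 26 arrays. A gene was a member if its symbol is Psma, Psmb, Psmc, Psmd or Psme followed by a number and if a probe set carried that symbol alone. The brightest probe set over all arrays stood for each gene. The rule gave 42 of the 18193 genes with a single-symbol probe set, and no measured difference between groups entered it. Of these, 14 encode the core particle (7 alpha and 7 beta subunits), 17 the regulatory cap (6 ATPases and 3 other subunits of the base, and 8 of the lid), and 3 the inducible subunits of the immunoproteasome. A further 3 encode chaperones of cap assembly and 3 encode activators that dock on the core. The remaining members, Psma8 (an alpha subunit of the testis) and Psmb11 (a beta subunit of the thymus), did not pass the filter on dim probe sets, with intensities of 1 to 29 and 1 to 34, so 40 members were tested. Psme2 shares its probe set with Psme2b and was not analysed here.

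The islets came from wild-type C57BL/6J male mice, young (5 weeks) or old (56 weeks), and were used fresh or after culture. Cultured islets of every group recovered for 1 day at 11 mM glucose and then spent 2 days at 3, 5.5 or 11 mM, with 16 mM for young islets alone. For a time course, young islets were kept overnight at 3 mM (time 0) and then moved to 11 mM for 1 or 4 h. The young 11 mM group had 4 arrays and each of the others 2, and whether mice were pooled is not given in the sources used here. Islets are a mixture of endocrine and other cells, so fewer cells of a type and less RNA per cell cannot be told apart.

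The 5′ to 3′ ratio of the Gapdh control separated the arrays into a set A (12 arrays, ratio 1.03 to 1.479) and a set B (14 arrays, 0.1 to 0.277) that the labels do not name. Set A holds every old group, the fresh young islets, and the arrays numbered 3 and 4 among the young ones kept at 11 mM. Set B holds the other cultured young islets and the time course. Within young islets at 11 mM, 21 of the 40 members differed between the sets (9 higher and 12 lower in set A), as did 39.7% of all genes. Psmb7 differed by -2.51 (log2, set A minus set B), with intensities of 135 and 138 against 709 and 1018. Every comparison below was therefore made within a set, and old and young islets at 3 or 5.5 mM, which lie in different sets, were not compared. The 7 beta cell markers were all measured, with a summed intensity of 14585 to 52526 over all arrays. The 7 measured acinar markers summed to 7242 to 32227 in fresh islets and to 143 to 5462 in cultured ones.

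The proteasome degrades proteins marked with ubiquitin. Its barrel-shaped core holds the proteolytic beta subunits between rings of alpha subunits, and the cap recognises the ubiquitin chain, removes it and unfolds the protein with a ring of ATPases. Other activators open the core without ATP: PA28 alpha and beta (Psme1 and Psme2) favour the production of antigenic peptides, PA28 gamma (Psme3) is a nuclear activator of ubiquitin-independent degradation, and PA200 (Psme4) is a nuclear protein tied to histone turnover. In the immunoproteasome, induced by interferon gamma, Psmb9, Psmb10 and Psmb8 take the places of the proteolytic subunits Psmb6, Psmb7 and Psmb5. In beta cells the proteasome also clears misfolded proinsulin exported from the endoplasmic reticulum.

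The promoters of 4 members are shown, chosen after their values were seen, since they form a pair that fell (Psme3 and Psmd4) and a pair that rose (Psme4 and Psmd1) at high glucose at both ages. Each is the 250 bases before the RefSeq transcription start, 5′ to 3′ on the strand of the gene, in build GRCm38.p6. Psme3 lies at chr11:101315963-101316212 (plus strand), Psmd4 at chr3:95042615-95042864 (minus strand), Psme4 at chr11:30771525-30771774 (plus strand) and Psmd1 at chr1:86064369-86064618 (plus strand). Capitals mark matches to the ETS core CCGGAAG or the E-box CACGTG.
Psme3: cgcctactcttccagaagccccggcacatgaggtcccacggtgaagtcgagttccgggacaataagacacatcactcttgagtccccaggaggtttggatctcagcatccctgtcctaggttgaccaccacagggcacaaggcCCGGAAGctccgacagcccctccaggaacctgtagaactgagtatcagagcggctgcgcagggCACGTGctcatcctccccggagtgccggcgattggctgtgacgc
Psmd4: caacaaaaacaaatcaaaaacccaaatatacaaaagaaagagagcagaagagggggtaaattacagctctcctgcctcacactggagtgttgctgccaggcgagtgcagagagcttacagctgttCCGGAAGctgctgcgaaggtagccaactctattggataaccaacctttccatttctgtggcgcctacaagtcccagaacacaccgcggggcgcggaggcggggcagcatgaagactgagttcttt
Psme4: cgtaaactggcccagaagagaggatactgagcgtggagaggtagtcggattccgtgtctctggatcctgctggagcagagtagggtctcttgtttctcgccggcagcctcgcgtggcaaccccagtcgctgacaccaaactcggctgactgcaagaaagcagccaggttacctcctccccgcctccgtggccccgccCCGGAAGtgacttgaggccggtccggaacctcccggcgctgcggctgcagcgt
Psmd1: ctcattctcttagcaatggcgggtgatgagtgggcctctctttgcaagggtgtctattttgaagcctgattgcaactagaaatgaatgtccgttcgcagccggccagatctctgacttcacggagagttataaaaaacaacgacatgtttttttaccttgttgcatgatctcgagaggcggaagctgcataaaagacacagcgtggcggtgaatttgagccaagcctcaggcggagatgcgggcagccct
Both strands were searched for these motifs and for the antioxidant response element TGACNNNGC. The ETS core starts 107 bases before the start of Psme3, 125 before that of Psmd4 and 53 before that of Psme4, and the E-box 44 before that of Psme3. No motif of the 3 has its letters in the Psmd1 window. Of the 35 members with a window in the table, 11 hold the ETS core (7.8% of 27025 genes do), 4 the E-box (6.9%) and 5 the antioxidant response element (11.5%). A match is a string of letters and was not tested as a binding site. The pair that fell and Psme4, which rose, all hold the ETS core.

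Glucose moved single proteasome genes in both directions and left the family as a whole near the level of other genes. In young islets at 16 against 3 mM, 7 members rose and 7 fell of 40 (limma, Benjamini-Hochberg adjusted p under 0.05), against 28.7% of all 12580 genes tested (14.5% higher and 14.2% lower), and the median log2 change was 0.05 over members and 0.01 over all genes. At 11 against 3 mM, 4 rose and 7 fell (26.4% of all genes changed, 13.3% higher and 13.1% lower), with medians of -0.05 and 0.05. At 5.5 against 3 mM, 2 rose and 3 fell (6.06% of all genes, 2.97% higher and 3.08% lower). In old islets, 4 rose and 8 fell at 11 against 3 mM (24.6% of all genes, 13.9% higher and 10.6% lower), with medians of -0.09 and 0.04. At 5.5 against 3 mM, 1 rose and 3 fell (4.69% of all genes, 2.39% higher and 2.3% lower).

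The same 7 members changed in the same direction at 11 against 3 mM in both ages, which share no arrays. They are 63.6% of the 11 young calls and 58.3% of the 12 old calls. Over all genes the shares were 58.3% and 62.6%, so the members overlapped about as often as genes at large. Psme3, Psmc6 (on its brightest probe set), Psmd4 and Psmb1 fell, and Psme4, Psmd1 and Psmb2 rose. At 16 against 11 mM no member passed (limma), and 0.00795% of all genes did (1 gene, lower). There 4 members and 1062 of all 12580 genes had an unadjusted p under 0.05. Beta cell markers moved with the same glucose steps. At 11 against 3 mM 4 of 7 rose in young and 5 of 7 in old islets, where their sums were 18984 to 21121 at 3 mM and 33632 to 41354 at 11 mM. Their part in the proteasome results was not tested.

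**Figure D1:**
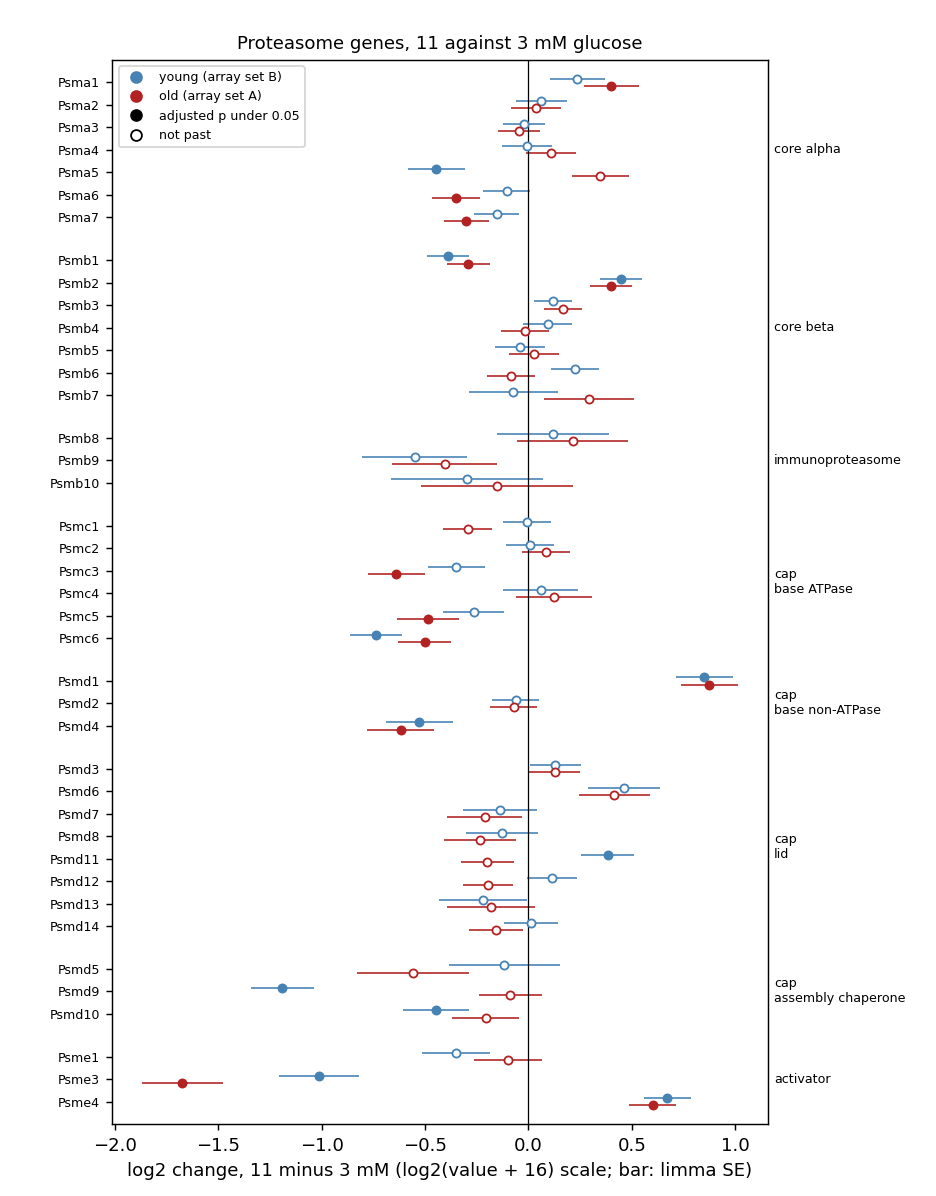
Log2 change of each of the 40 members from 3 to 11 mM glucose, by role, in young islets (blue, array set B, 2 against 2 arrays) and old islets (red, array set A, 2 against 2 arrays). Bars are limma's SE and filled points passed an adjusted p of 0.05. Psme3 is the lowest point of old islets at -1.67, Psmd1 and Psme4 lie to the right at both ages, and Psmd9 is low in young islets alone.

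Among the activators, Psme3 fell and Psme4 rose at higher glucose at both ages. At 11 mM the change of Psme3 was the larger, and at 16 mM that of Psme4. Psme3 read 372 and 369 at 3 mM in young islets, 238 and 191 at 5.5 mM, 173 and 178 at 11 mM within set B, and 220 and 196 at 16 mM. In old islets it read 532 and 390 at 3 mM, 198 and 186 at 5.5 mM, and 128 and 136 at 11 mM. At both ages the 3 mM arrays were above every array of the other concentrations, and such separation was a condition for naming the gene. The log2 change at 11 against 3 mM was -1.01 (SE 0.19, limma adjusted p 0.000682) in young islets. In old islets it was -1.67 (SE 0.19, adjusted p 6.22e-06). The difference between the ages, -0.66 (SE 0.28, adjusted p 0.417), did not pass. Psme3 also fell at 5.5 mM, by 0.75 in young and by 1.18 in old islets, and at 16 mM, by 0.79. The calls at 11 and 16 mM held with any array left out. The young call at 5.5 mM was lost without replicate 1 (adjusted p 0.127) or 2 (0.122) of 3 mM or replicate 2 of 5.5 mM (0.257), and the old call without replicate 1 of 3 mM (0.0752). A dimmer probe set of Psme3 changed by -0.43 in young and -0.02 in old islets at 11 mM, and the mean over probe sets ended the calls at 5.5 mM (-0.46, adjusted p 0.0714, and -0.44, 0.0976).

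Psme4, which encodes PA200, rose as glucose rose. In young islets it read 1036 and 1082 at 3 mM, 1326 and 1477 at 5.5 mM, 1657 and 1734 at 11 mM in set B, and 1911 and 2195 at 16 mM. In old islets the readings were 770 and 837 at 3 mM, 1079 and 1176 at 5.5 mM, and 1272 and 1179 at 11 mM. The young groups did not overlap and stood in the order of the glucose concentration. Separation from 3 mM was a condition for naming the gene. Against 3 mM the young changes were 0.40 (SE 0.11, limma adjusted p 0.0433) at 5.5 mM, 0.67 (SE 0.11, 0.000239) at 11 mM and 0.94 (SE 0.11, 5.3e-06) at 16 mM, and the step from 11 to 16 mM (0.27, SE 0.11, 0.521) did not pass. In old islets the changes were 0.48 (SE 0.11, adjusted p 0.0195) at 5.5 mM and 0.60 (SE 0.11, 0.000737) at 11 mM. The calls at 11 and 16 mM held with any array left out. Either call at 5.5 mM was lost without any 1 of its 4 arrays, with adjusted p of 0.0545 to 0.331 in young and 0.0509 to 0.218 in old islets. A second bright probe set rose by 0.74 at 11 mM in young and by 0.35 in old islets. The mean over all 6 probe sets, some of them dim, gave 0.31 (adjusted p 0.0691) and 0.16 (0.381).

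Psme1, the PA28 alpha subunit, read 529 and 617 at 3 mM in young islets and 387 and 355 at 16 mM, a fall by 0.60 (SE 0.16, limma adjusted p 0.00888) that was lost without replicate 2 of 3 mM (0.0942) or of 16 mM (0.07). Its old values, 673 and 801 at 3 mM and 597 and 783 at 11 mM, overlapped.

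**Figure D2:**
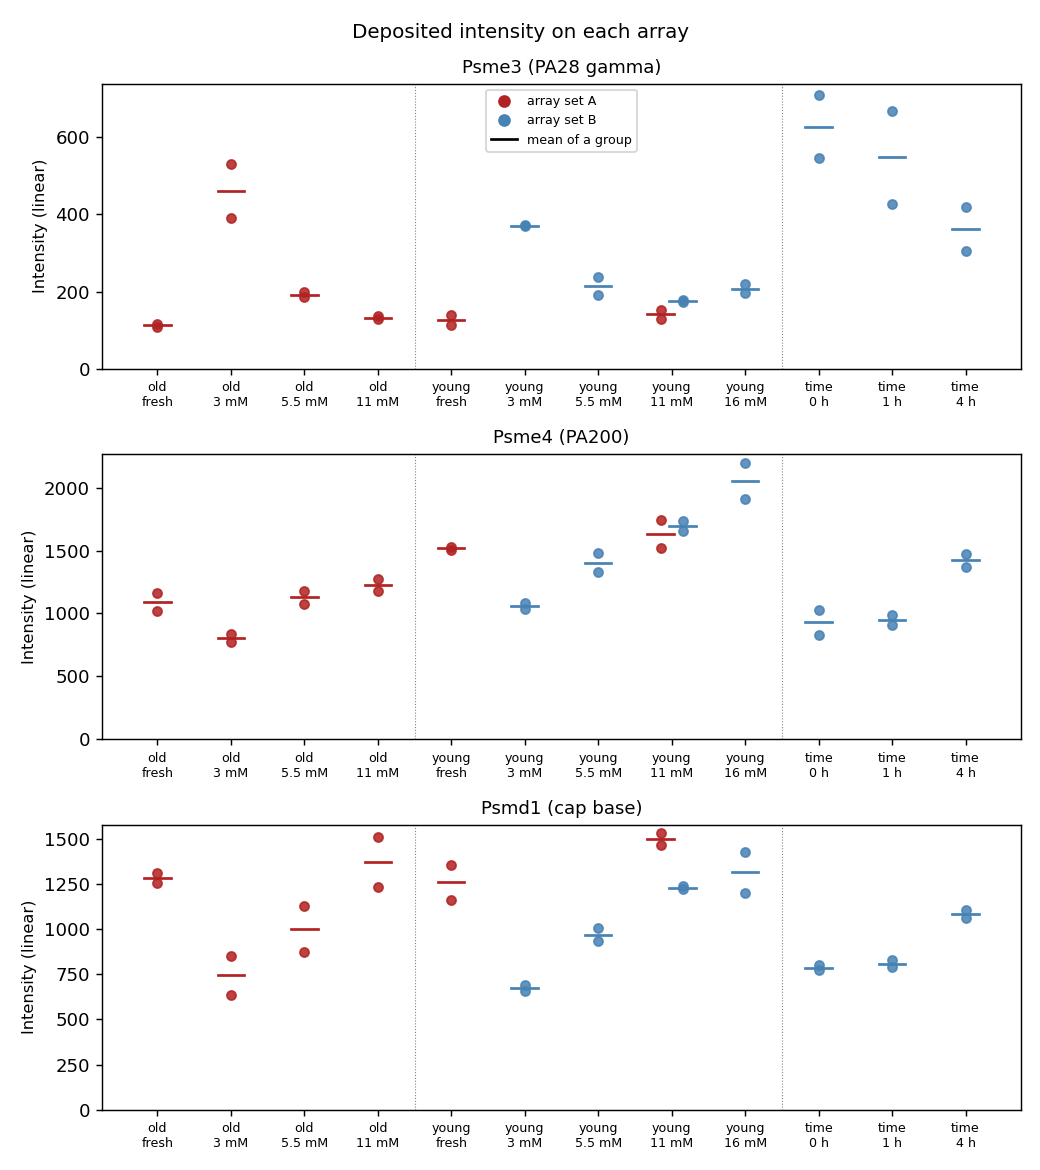
Deposited intensity (linear) of Psme3, Psme4 and Psmd1 on each of the 26 arrays by group, red for array set A and blue for set B. Horizontal lines are group means within a set, and levels compare only within a colour. Psme3 is high at 3 mM and at time 0, where Psme4 and Psmd1 are low.

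In the base of the cap, Psmd1, the large scaffold subunit that holds ubiquitin receptors, rose with glucose. Its young readings were 659 and 690 at 3 mM, 933 and 1006 at 5.5 mM, 1236 and 1220 at 11 mM in set B, and 1427 and 1202 at 16 mM. Its old readings were 637 and 850 at 3 mM, 874 and 1125 at 5.5 mM, and 1507 and 1231 at 11 mM. Every 3 mM array was below every array at higher glucose of the same age. This was a condition for naming the gene, except at 5.5 mM in old islets. The log2 change at 11 against 3 mM was 0.85 (SE 0.14, limma adjusted p 0.00014) in young and 0.87 (SE 0.14, 0.000119) in old islets, and 0.94 (SE 0.14, 3.78e-05) at 16 mM. These calls held with any array left out. At 5.5 mM it was 0.51 (adjusted p 0.0296) in young islets, a call lost without any 1 of the 4 arrays (0.0586 to 0.231), and 0.42 (0.0835) in old islets.

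Psmd4, the ubiquitin receptor of the base known as Rpn10, fell. It read 823 and 831 at 3 mM in young islets against 618 and 524 at 11 mM in set B and 634 and 562 at 16 mM, and 949 and 817 at 3 mM in old islets against 517 and 625 at 11 mM. The groups did not overlap at either age, which at 11 mM was a condition for naming the gene. At 11 mM the change was -0.53 (SE 0.16, limma adjusted p 0.0203) in young and -0.62 (SE 0.16, 0.00802) in old islets. A second probe set changed by -0.35 and -0.74, and another, dim one by 0.23 and -0.47. The mean of the probe sets ended the young call (-0.21, adjusted p 0.495). The young call was lost without replicate 1 or 2 of 3 mM (adjusted p 0.0849 each) or replicate 2 of 11 mM (0.174), and the old call without replicate 1 of 3 mM (0.101) or of 11 mM (0.0941).

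Among the 6 ATPases, the probe set of Psmc6 read 1312 and 1125 at 3 mM and 655 and 797 at 11 mM in young islets, and 1364 and 1393 against 908 and 1034 in old ones. Those changes were -0.74 (SE 0.13, limma adjusted p 0.00026) and -0.50 (SE 0.13, 0.00653). Another Psmc6 probe set moved the opposite way, by 0.88 and 0.77, so the probe sets of this gene disagree and no direction is given for it. Psmc3 fell in old islets, from 572 and 634 to 457 and 317 (-0.64, SE 0.14, adjusted p 0.00196), a call lost without replicate 2 of 11 mM (0.0632). Psmc5 fell in old islets, from 1230 and 1248 to 812 and 954 (-0.49, SE 0.15, adjusted p 0.0211), and was lost without replicate 1 (0.0909) or 2 (0.0881) of 3 mM or replicate 1 of 11 mM (0.168). In young islets Psmc3 and Psmc5 changed by -0.35 (adjusted p 0.0693) and -0.27 (0.207), which did not pass. Psmc1 fell in old islets at 5.5 mM, from 1035 and 879 to 682 and 689 (-0.47, adjusted p 0.0244). That call was lost without replicate 1 of 3 mM (0.317) or without replicate 1 (0.125) or 2 (0.158) of 5.5 mM.

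The lid carries the deubiquitinase Psmd14. After 2 days of culture, of its 8 subunits, Psmd11 rose by 0.38 in young islets at 11 mM, and Psmd6 and Psmd12 rose by 0.55 and 0.35 at 16 mM. None passed in old islets at 11 against 3 mM (limma), where 1 had an unadjusted p under 0.05, as did 4471 of 12580 genes. Of the assembly chaperones, which leave before the cap is complete, Psmd9 read 236 and 267 at 3 mM in young islets, 180 and 171 at 5.5 mM, 91 and 112 at 11 mM in set B, and 112 and 89 at 16 mM. Its old values stayed between 182 and 237 at all 3 concentrations. The young change at 11 against 3 mM was -1.19 (SE 0.15, limma adjusted p 1.28e-05), the old change -0.09 (SE 0.15, 0.733), and the difference between the ages 1.10 (SE 0.22, 0.0458). Psmd9 was the 1 member of 40 past the threshold in this difference, against 0.143% of all genes (0.103% higher and 0.0397% lower in old islets). The old arrays are of set A and the young ones of set B, so age and array set cannot be told apart in it. A dim second probe set of Psmd9 moved by 0.77 in young islets. The mean over probe sets gave -0.28 (adjusted p 0.288) in young islets and a difference between the ages of 0.33 (0.747). The difference between the ages was also lost in all but 1 of the 8 fits that left out an array compared, with adjusted p of 0.0668 to 0.248 where it was lost. Psmd10 (gankyrin) fell in young islets, from 213 and 162 at 3 mM to 130 and 134 at 11 mM (-0.45, adjusted p 0.0437), a call lost without replicate 1 of 3 mM (0.385) or without replicate 1 (0.141) or 2 (0.124) of 11 mM.

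In the core particle, 1 of 14 members rose and 2 fell at 11 against 3 mM in young islets, where 26.4% of all genes changed, and 2 rose and 3 fell in old ones (24.6% of all genes). At 16 against 3 mM, 3 of 14 rose, all of them beta subunits (Psmb2, Psmb3 and Psmb6), and none fell. Over all genes 28.7% changed (14.5% higher and 14.2% lower). Of the 14 core members 11 lay above 0, with a median of 0.24 (0.01 over all genes). Psmb2 rose at both ages, from 401 and 431 to 541 and 606 in young islets (0.45, SE 0.10, limma adjusted p 0.00298) and from 763 and 839 to 992 and 1134 in old ones (0.40, SE 0.10, 0.00703). The young call was lost without replicate 2 of 11 mM (0.0526). Psmb1 fell at both ages, by 0.39 and 0.29. Psma1 rose in old islets, from 1386 and 1450 to 1614 and 2179 (0.40, SE 0.13, adjusted p 0.0331), and fell short without replicate 1 (0.164) or 2 (0.082) of 3 mM or replicate 2 of 11 mM (0.422). The call of Psma1 was also lost with the mean of its probe sets (0.13, adjusted p 0.564). Psma5 fell in young islets at 11 mM (-0.45, SE 0.14, adjusted p 0.0219), but another of its probe sets changed by 0.11.

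Of the 3 proteolytic subunits, none passed at 11 against 3 mM (limma, 0 of 3 at an unadjusted p under 0.05) and Psmb6 rose at 16 mM. Over all 12580 genes, 4670 in young and 4471 in old islets had an unadjusted p under 0.05 at 11 against 3 mM. Psmb5, with chymotrypsin-like activity, read 1551 and 1591 at 3 mM and 1489 and 1563 at 11 mM in young islets, and 832 and 961 against 821 and 1010 in old ones. Psmb6, with caspase-like activity, read 1599 and 1607 against 1829 and 1922 in young islets (0.22, adjusted p 0.174) and rose at 16 mM to 1836 and 2429 (0.39, SE 0.12, limma adjusted p 0.015). Psmb7, with trypsin-like activity, read 893 and 896 against 709 and 1018 in young islets and 262 and 310 against 267 and 464 in old ones. The 3 and 11 mM arrays of Psmb5 and Psmb7 overlapped at both ages. At 16 mM Psmb5 read 1817 and 1968 (0.27, SE 0.12, adjusted p 0.114) and Psmb7 1017 and 1189 (0.29, SE 0.22, 0.345), above both 3 mM arrays but not past the threshold.

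The immunoproteasome subunits were dimmer and more variable between replicates. Psmb9 read 226 and 190 at 3 mM in young islets, 256 and 209 at 5.5 mM, 170 and 109 at 11 mM in set B and 133 and 77 at 16 mM. It fell at 16 against 3 mM (-0.92, SE 0.25, limma adjusted p 0.00911), a call lost without replicate 1 of 3 mM (0.0831) or replicate 2 of 16 mM (0.173). In old islets Psmb9 read 226 and 196 at 3 mM and 152 and 158 at 11 mM (-0.41, SE 0.25, 0.269), which did not overlap but did not pass. Psmb8 read 130 and 177 at 3 mM and 177 and 156 at 11 mM in young islets, and 153 and 158 against 163 and 205 in old ones. Psmb10 read 310 and 287 against 243 and 236 in young islets (-0.30, SE 0.37, 0.6) and 302 and 329 against 249 and 319 in old ones. Outside Psmb9 at 16 mM, no immunoproteasome subunit passed in any of the 17 comparisons (limma). 1 of the 3 had an unadjusted p under 0.05 at 11 against 3 mM in young islets, as did 4670 of 12580 genes.

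In the time course the immunoproteasome differed between the replicates more than between the times. Psmb10 read 259 and 583 at time 0, 300 and 630 at 1 h, and 306 and 954 at 4 h in replicates 1 and 2. Psmb8 read 127 and 245, then 126 and 238, then 149 and 261. Psmb9 read 224 and 294, then 204 and 323, then 175 and 316. Replicate 2 was the higher at every time for all 3 subunits. Irf1, an interferon-responsive transcription factor, was likewise higher in replicate 2 (569 and 1073, 601 and 1112, 597 and 1334), and so was the interferon-induced GTPase Gbp2 (19 and 88, 28 and 96, 15 and 143). Of the 14 measured genes of antigen presentation and interferon, 10 were higher in replicate 2 at all 3 times and none was lower at all 3. This was not particular to that list. Replicate 2 was also higher at all 3 times in 6 of 8 measured genes of the NRF1 list (1 lower) and in 3 of 3 cap deubiquitinases and receptors, both given below. The share over all genes was not counted. Of the 16 leukocyte and macrophage markers, 1 (Cd68) was higher in replicate 2 at all 3 times, 13 were lower and 2 were mixed. All 7 acinar, 6 of 7 beta cell and 6 of 9 endothelial markers were lower in replicate 2 at all 3 times. These values differ together between the replicates, and their part in the immunoproteasome levels was not tested.

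**Figure D3:**
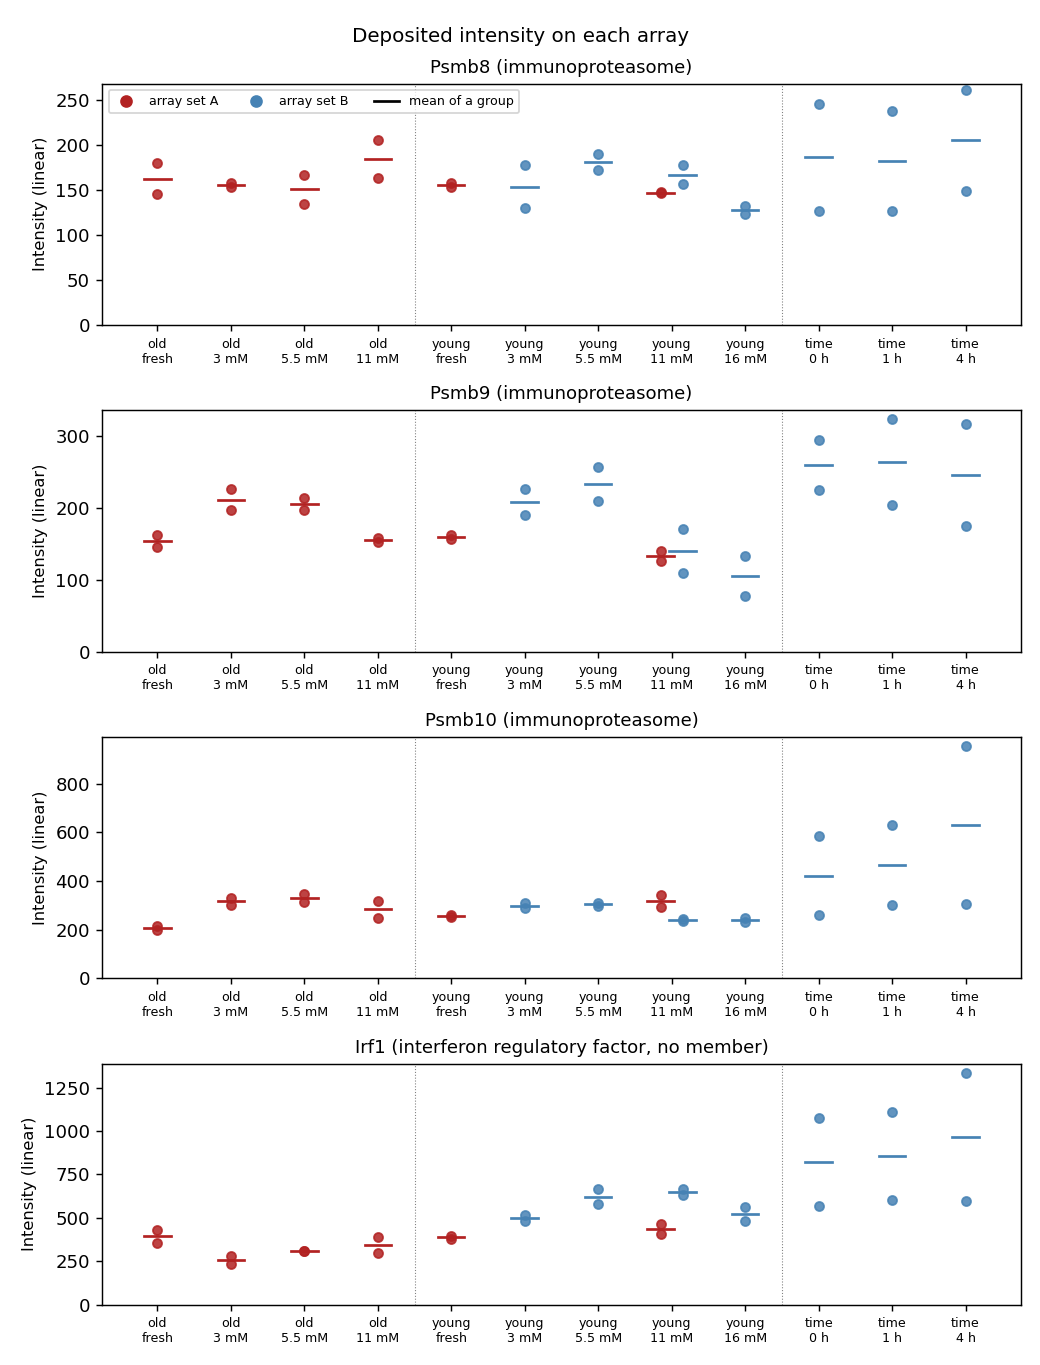
Deposited intensity (linear) of Psmb8, Psmb9, Psmb10 and, for comparison, Irf1 on each of the 26 arrays by group, red for array set A and blue for set B, with lines at group means within a set. The replicates lie far apart in the time course, where replicate 2 is the higher, and Psmb9 is lowest at 16 mM.

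At 1 h after the move to 11 mM no proteasome gene had changed, and by 4 h Psme3 and Psme4 had. At 1 h 0 of 40 members passed and 0 had an unadjusted p under 0.05 (limma), while 0.262% of all genes passed (0.183% higher and 0.0795% lower). Of all 12580 genes, 770 had an unadjusted p under 0.05. At 4 h, 8 members rose and 1 fell, against 11.4% of all genes (5.72% higher and 5.64% lower), and the median was 0.17 over members and -0.01 over all genes. Psme3 fell, from 546 and 709 at time 0 to 304 and 420 at 4 h, with 427 and 669 at 1 h (-0.77 at 4 h, SE 0.19, adjusted p 0.0123). Psme4 rose from 831 and 1027 to 1368 and 1475, with 910 and 987 at 1 h (0.61 at 4 h, SE 0.11, adjusted p 0.00136), and Psmd1 from 802 and 772 to 1060 and 1105 (0.45, SE 0.14, 0.0367). All 3 genes had separate values at time 0 and 4 h, a condition for naming them, and moved in the direction seen after 2 days. They were the only 3 of the 9 calls at 4 h called the same way in young islets at 11 against 3 mM (33.3%), and 1 call was opposite. Over all genes that share was 48.5%. With old islets at 11 against 3 mM the shares were 44.4% of members' calls and 40.3% over all genes. The calls of the family were fragile here, with 2 to 3 in place of 9 when any of the 4 arrays was left out. The call of Psme4 held each time. That of Psme3 was lost without replicate 2 of time 0 (0.164) or replicate 1 of 4 h (0.182), and that of Psmd1 with any array left out (0.112 to 0.178). The mean of probe sets ended the calls of Psme3 (-0.37, 0.11) and Psme4 (0.31, 0.102).

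The other members that rose at 4 h were the lid subunits Psmd6 (1024 and 1151 to 1683 and 1813, 0.68), Psmd12 (1193 and 1363 to 1786 and 1824, 0.50) and Psmd14 (0.43), and the alpha subunits Psma1 (0.43), Psma4 (0.39) and Psma5 (0.44). Psma5 thus changed in opposite directions at 4 h (1968 and 2230 to 2740 and 2956) and, on that probe set, after 2 days at 11 mM (2449 and 2580 at 3 mM against 1840 and 1844). All 14 core members had a log2 change above 0 at 4 h, of 0.03 to 0.44, of which 3 passed. That of Psma1 did not pass with the mean of its probe sets (0.19, limma adjusted p 0.479). The calls of Psmd6 (adjusted p 0.0534 to 0.112) and Psmd12 (0.0557 to 0.121) were lost without replicate 1 of time 0 or either replicate of 4 h, and those of Psmd14, Psma1 and Psma5 without any 1 of the 4 arrays.

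In old islets cultured at 3 mM, more proteasome genes were higher than lower against fresh islets. Marker genes of other cells differed as well, as given below, and the part of culture itself was not tested. Against fresh old islets, 21 of 40 members rose and 2 fell at 3 mM, while 35.1% of all genes changed (16.6% higher and 18.5% lower). The median was 0.39 over members and -0.06 over all genes. Of the core, 8 of 14 rose. Of the cap, 10 of 17 rose and 1 fell, of the assembly chaperones 2 of 3 rose, and of the immunoproteasome none of 3 passed. Without replicate 1 of fresh old islets 10 members rose and 1 fell, and 14 passed in a fit with no array set.

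Psme3 led on its brightest probe set, at 108 and 117 in fresh old islets and 532 and 390 at 3 mM (1.88, SE 0.19, limma adjusted p 5.04e-07). A dimmer probe set of Psme3 changed by -0.05. Psmd4 read 343 and 429 fresh and 949 and 817 at 3 mM (1.17, SE 0.16, 1.57e-05). Psmc3 read 284 and 321 against 572 and 634 (0.96, SE 0.14, 2.34e-05). Psmc5 read 537 and 742 against 1230 and 1248 (0.95, SE 0.15, 5.4e-05), and Psmd7 369 and 404 against 627 and 680 (0.73, SE 0.18, 0.00337). The lid subunit Psmd13 read 90 and 158 against 267 and 229 (0.96, SE 0.21, 0.00158), a call lost without replicate 1 of fresh islets (0.0636). In each of these the fresh and 3 mM values did not overlap, which was a condition for naming them. The members that fell were Psmd1, from 1308 and 1257 to 637 and 850 (-0.79, SE 0.14, 0.000167), and Psme4, from 1164 and 1020 to 770 and 837 (-0.43, SE 0.11, 0.00598). A second bright probe set of Psme4 changed by -0.16. Psmc6 rose by 1.05 on its brightest probe set and changed by -0.77 on another.

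At 11 mM fewer members passed against fresh islets, while nearly all lay above 0. Of the 40, Psma4 (902 and 849 to 1163 and 1193, 0.42, SE 0.12, limma adjusted p 0.0444), Psmc6 on its brightest probe set (0.55, SE 0.13, 0.0117) and Psmd13 (90 and 158 to 185 and 253, 0.78, SE 0.21, 0.034) rose and none fell, against 5.56% of all genes (2.79% higher and 2.77% lower). In all, 39 of 40 members had a log2 change above 0, with a median of 0.30 (0.02 over all genes). An unadjusted p under 0.05 (limma) was found for 20 of the 40 members and for 2380 of all 12580 genes. The count was 10 without replicate 1 of 11 mM (9 rose and 1 fell), 1 without replicate 2 of 11 mM and 1 without replicate 1 of fresh islets. The call of Psma4 was lost without any 1 of the 4 arrays (0.1 to 0.21), and that of Psmd13 without replicate 2 of 11 mM (0.321) or replicate 1 of fresh islets (0.478). Psme3 (128 and 136), Psme4 (1272 and 1179) and Psmd1 (1507 and 1231) at 11 mM did not differ from fresh at the threshold (0.20, 0.17 and 0.09). Both cultures share the fresh arrays, so their values stand side by side and are not independent.

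Fresh and cultured islets differed in other cells as well. The 7 measured acinar markers summed to 16262 to 32227 in fresh old islets, to 165 to 577 at 3 mM and to 180 to 517 at 11 mM, and all 7 were lower in both cultures. The 9 endothelial markers summed to 2876 to 3010 fresh, 502 to 721 at 3 mM and 520 to 627 at 11 mM. The 7 beta cell markers summed to 32523 to 44195 fresh, 18984 to 21121 at 3 mM and 33632 to 41354 at 11 mM. The part of the cell mixture in these results was not tested.

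**Figure D4:**
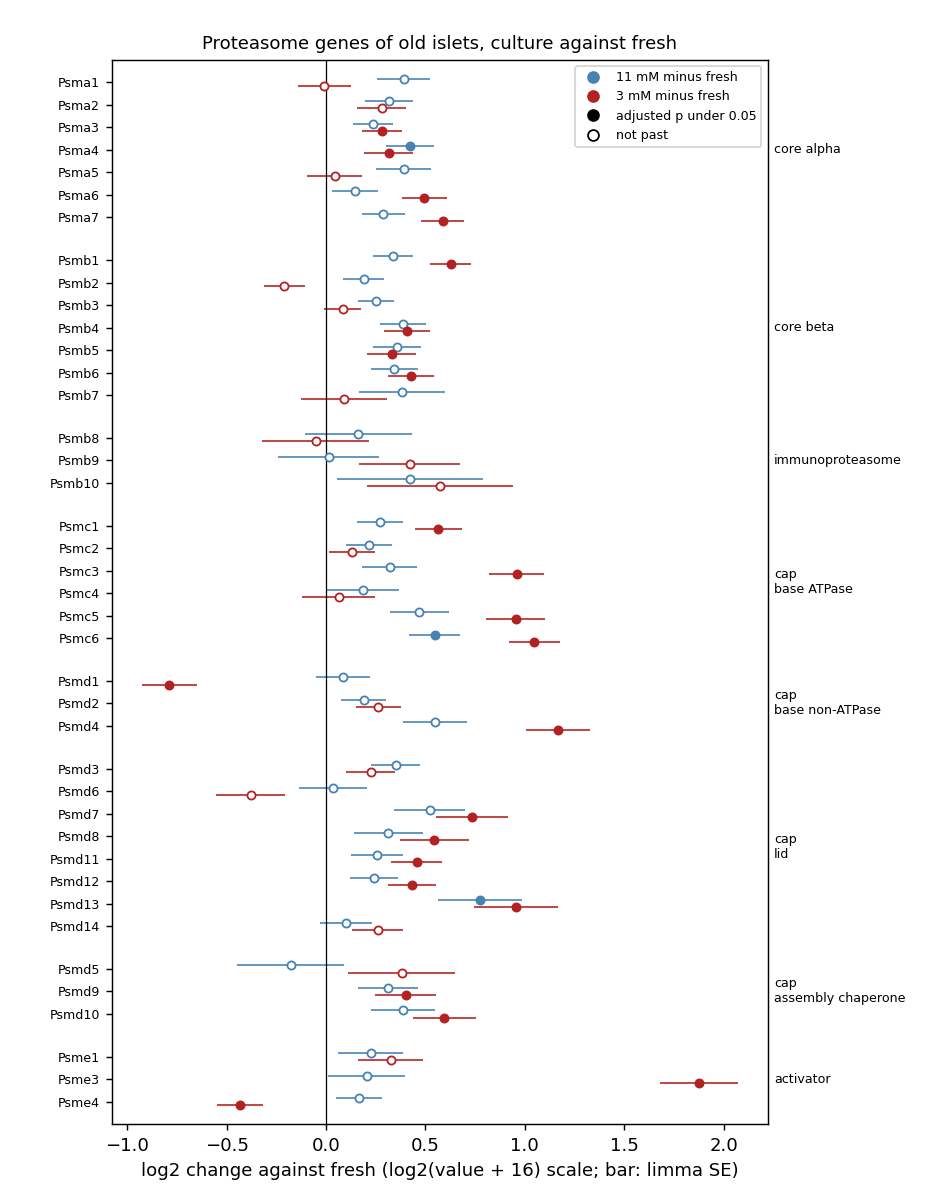
Log2 change of each of the 40 members in old islets cultured at 11 mM (blue) or 3 mM (red) against the same fresh old islets, by role, with limma's SE as bars and filled points past an adjusted p of 0.05 (2 against 2 arrays). Most members lie to the right of 0 in both cultures, and Psme3, Psmd4, Psmd1 and Psme4 stand apart between the cultures.

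In young islets no member passed between 11 mM (replicates 3 and 4) and fresh islets (limma), against 4.19% of all genes (1.68% higher and 2.51% lower). An unadjusted p under 0.05 was found for 10 members and for 1936 of all 12580 genes. Of the 40 members, 36 lay above 0, with a median of 0.15. The difference between the ages in this step passed for no member, against 0.0238% of all genes (0.00795% higher and 0.0159% lower). For this difference 2 members and 977 of 12580 genes had an unadjusted p under 0.05 (limma). Young islets at 3 mM lie in the other array set than fresh ones. Adding the change from fresh to 11 mM in set A to that from 11 to 3 mM in set B, a comparison chosen after seeing the data, gave 7 members higher and 3 lower, against 17.4% of all genes (8.41% higher and 8.99% lower). Psmd9 (1.33), Psme3 (1.16, SE 0.28, adjusted p 0.00624), Psma5 (0.81), Psmd4 (0.72), Psmc3 (0.64) and Psmb1 (0.53) were higher, with Psmc6 on its brightest probe set (1.16). Psmd1 (-0.60), Psme4 (-0.57) and Psmb2 (-0.43) were lower. Psme3 passed with any array left out. Psmd4 was lost in 5 such fits, Psmc3 in 6, Psmd1 in 7 and Psme4 in 4, with adjusted p of 0.0535 to 0.152. The mean of probe sets ended the calls of Psmd9 (0.11, 0.817), Psma5 (0.16, 0.584), Psmd4 (0.45, 0.313), Psmc6 (0.42, 0.135) and Psme4 (-0.10, 0.744). Acinar markers were again lower in the cultured islets, 6 of 7 at 11 mM. The difference between old and young islets in the step from fresh to 3 mM passed for none, against 0.0874% of all genes (0.0556% higher and 0.0318% lower). For it 6 members and 1035 of 12580 genes had an unadjusted p under 0.05 (limma).

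Between the ages, members were called about as often as genes at large. In fresh islets 1 member was higher and 3 were lower in old mice, against 9.44% of all genes (5.75% higher and 3.7% lower), with a median of -0.13 over members and 31 of 40 below 0. At 11 mM within set A, 4 were higher and 2 lower, against 15.6% of all genes (10% higher and 5.59% lower). Psmb7 was higher in old islets in both, at 277 and 257 against 167 and 107 fresh (0.91, SE 0.22, limma adjusted p 0.011) and at 267 and 464 against 135 and 138 at 11 mM (1.27, SE 0.22, 0.000571). The fresh call was lost without replicate 1 of old (0.089) or replicate 2 of young islets (0.157), and both calls with no array set (0.91, 0.5, and 0.02, 0.988). All 26 arrays measured Psmb7 with 1 probe set, the same that read 709 to 1489 in the young islets of set B. Psmc3 was lower in old islets, at 284 and 321 against 444 and 443 fresh (-0.53, SE 0.14, 0.0196) and at 457 and 317 against 540 and 552 at 11 mM (-0.50, SE 0.14, 0.0178). Psme4 was lower too, at 1164 and 1020 against 1506 and 1527 fresh (-0.47, SE 0.11, 0.0132) and at 1272 and 1179 against 1523 and 1742 at 11 mM (-0.41, SE 0.11, 0.0204). The old and young values of these 3 genes did not overlap in either state, which was a condition for naming them.

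Each age call of Psmc3 and Psme4 depended on single arrays. Fresh, Psmc3 was lost without replicate 1 of old (adjusted p 0.165) or either replicate of young islets (0.0868 and 0.088), and Psme4 without replicate 2 of old (0.134) or either replicate of young islets (0.0586 and 0.0767). At 11 mM, Psmc3 was lost without replicate 2 of old (0.315) or replicate 3 (0.0723) or 4 (0.0963) of young islets, and Psme4 without replicate 2 of old (0.148) or replicate 4 of young islets (0.19). The count at 11 mM went from 6 to 1 without replicate 4 of young islets and to 2 without replicate 2 of old ones. The other calls at 11 mM were Psmd9 (182 and 236 against 139 and 125, 0.60), Psmc5 (812 and 954 against 709 and 504, 0.55) and Psmd3 (363 and 357 against 286 and 241, 0.43), all higher in old islets. Without replicate 2 of old or replicate 4 of young islets each of the 3 was lost (0.0917 to 0.272), as was Psmd3 without replicate 1 of old islets (0.0738). Psmb1 was lower in fresh old islets (-0.50), a call lost without replicate 1 of old (0.0632) or replicate 2 of young islets (0.0617). The mean of probe sets ended the fresh calls of Psmb1 (-0.14, 0.603) and Psme4 (-0.18, 0.369). Of 7 fibroblast markers, 6 were lower in fresh old islets and 5 in old islets at 11 mM. In fresh islets all 7 acinar markers lay above 0 in old against young (median 1.32, none passed, sums 16262 to 32227 against 7242 to 13555), and 3 of 5 alpha, delta and PP cell markers were lower. Sums of beta cell markers were 32523 to 44195 in fresh old and 49999 to 52526 in fresh young islets, and of endothelial markers 2876 to 3010 and 3064 to 3449. Leukocyte and macrophage markers summed to 5460 to 6617 in fresh old and 4568 to 4748 in fresh young islets, and duct markers to 1209 to 1467 and 800 to 1143. The part of these cells in the age differences was not tested.

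Several partner genes of the proteasome changed with glucose too. Ecpas (the ECM29 adaptor that ties cap to core) read 232 and 252 at 3 mM and 403 and 395 at 11 mM in young islets (0.69, SE 0.11, limma adjusted p 0.000144), and 199 and 212 against 381 and 366 in old ones (0.81, SE 0.11, 3.18e-05). The groups were far apart at both ages, as for Psme4 and Psmd1. At 4 h of the time course the Ecpas values of 216 and 220 against 185 and 200 did not pass. Of the 7 measured genes of assembly and inhibition, 1 rose (Ecpas) and 2 fell at 11 mM in young islets, where 26.4% of all genes changed. In old ones 1 rose and 3 fell, where 24.6% of all genes changed. The assembly chaperones Psmg1 (601 and 501 to 414 and 331 in young islets, 784 and 795 to 446 and 478 in old ones) and Psmg2 (904 and 822 to 344 and 401, 900 and 863 to 454 and 653) fell at both ages. Pomp, which matures the core, read 795 and 830 at 3 mM and 920 and 892 at 11 mM in young islets and did not pass.

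Of the 3 measured genes listed as deubiquitinases and receptors of the cap (Usp14, Uchl5 and Sem1), 2 fell at 11 mM at each age. Over all genes 13.1% fell in young and 10.6% in old islets. Usp14, which trims ubiquitin chains at the cap, fell from 406 and 334 to 206 and 177 in young islets (-0.89) and from 545 and 461 to 305 and 174 in old ones (-1.07). Uchl5, another such enzyme, fell in old islets from 841 and 753 to 374 and 488 (-0.87, SE 0.14, limma adjusted p 0.000172). Sem1, a small cap subunit outside the naming rule, fell in young islets from 1816 and 1814 to 1180 and 1047 (-0.70), read 1754 and 1761 against 1766 and 1933 in old ones, and differed between the ages by 0.77 (SE 0.13, 0.0218). Age and array set cannot be told apart in that difference. Young islets at time 0, kept overnight at 3 mM and also in set B, read 1203 and 1218 for Sem1. Vcp, the unfoldase that delivers substrates, rose from 1216 and 986 to 1964 and 1591 in young islets (0.68) and from 1527 and 1625 to 2262 and 2009 in old ones (0.43). It had also risen at 4 h (0.58). In old islets at 3 mM against fresh, Uchl5 (1.37), Psmg1 (1.07), Rad23b (1.04), Usp14 (0.98) and Psmg2 (0.96) were higher and Ecpas was lower (-0.93).

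Nfe2l1, whose product NRF1 induces proteasome genes when the proteasome is inhibited, read 477 and 482 at 3 mM and 523 and 336 at 11 mM in young islets, and 947 and 998 against 899 and 928 in old ones. Neither passed. Of the 8 measured genes of the NRF1 list, 1 rose and 2 fell at 11 mM in young islets (26.4% of all genes changed). At 4 h none rose and 3 fell (11.4% of all genes), Maff (-1.15), Ngly1 (-0.60) and Sel1l (-0.40), with a median of -0.41 and, in either direction, 7 of 8 at an unadjusted p under 0.05. Over all genes, 2976 of 12580 had an unadjusted p under 0.05 at 4 h (limma). Nfe2l2 (637 and 795 at time 0, 901 and 1040 at 4 h) and Syvn1 (553 and 510, then 750 and 639) lay higher at 4 h without passing. Of the 14 measured genes of antigen presentation and interferon, none rose and 1 fell in young islets at 11 against 3 mM (26.4% of all genes changed). It was the class I heavy chain H2-D1 (-0.63, limma adjusted p 0.000273). In old against young islets at 11 mM, 3 of those 14 were higher, the class I genes B2m (0.74), H2-D1 (0.59) and H2-K1 (0.40). Over all genes 15.6% changed there, 10% higher. Psmb8, Psmb9 and Psmb10 changed by 0.29, 0.20 and -0.15 and did not pass. Of the ubiquitin genes and their activating enzymes, Uba6 was the 1 measured, and the others were not analysed here.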

How the data were processed

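Arrays of 26 samples were analysed from the deposited MAS5 intensity of each probe set on a linear scale, per the submitters' processing notes, with no version given in the sources used here. Each array's 2% trimmed mean had been scaled to a common value, and per the labels' protocols 50 ng of RNA went through 2 cycles of cDNA synthesis. Precision is limited by the number of arrays. The labels call replicates biological and do not say whether mice were pooled, so a p-value here reflects only how far these samples spread, which may be technical.

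Probe sets with 1 symbol (34945 of 45101) were named from the platform annotation with symbols updated through RefSeq, 932 had several and 9160 none. Genes whose brightest probe set was above the array median on at least 2 arrays were kept (12580). Values were log2(intensity + 16), so fold changes of dim genes are understated. They were fitted in R 4.3.3 with limma 3.58.1 (lmFit, eBayes with trend) on the means of group and array set over all 26 arrays (13 residual degrees of freedom), with Benjamini-Hochberg adjustment over all genes and a threshold of 0.05. The array set, split at a Gapdh 5′ to 3′ ratio of 0.5, was read from the files and is not in the labels.

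The text names up to 8 of the largest called members per comparison whose arrays did not overlap, and in addition Psmb5 to Psmb10 and Psme1 (Psme2, on the same list, was not analysed here). Lack of overlap in members named by this rule was set by the choice and adds no support to their calls. Other called members are given briefly. Members and lists were chosen with earlier results of these data known. The comparison of young islets at 3 mM with fresh ones was added after seeing the data. Replicate numbers were checked for pairing: deviations of same-numbered arrays correlated by 0.17 to 0.42 in cultured young islets of set B (6 pairs) and by 0.55 to 0.63 in the time course (3 pairs), and by 0.056 to 0.2 in old islets (6 pairs) and -0.013 in fresh ones (1 pair). The first 2 families meet the rule for pairing, but the fit holds no replicate term and the block is an alternative only. Scripts were tested on simulated data. Alternatives were the offset, the filter, the probe set rule, quantile normalization, no trend, no array set, a replicate block, the compared groups only, and leaving out each array. Promoter windows were taken from RefSeq, build GRCm38.p6, and the array files name no build.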

Additional observations from a re-analysis of the deposited data

Results flagged for a closer look

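The response to glucose of 2 genes differed between old islets (set A) and young islets (set B) by a test of the difference itself. For Psmd9, a chaperone of cap assembly, the log2 change from 3 to 11 mM was 1.10 higher in old than in young islets (SE 0.22, limma adjusted p 0.0458). That call was lost with no filter (0.0633), no trend (0.0711), no array set (0.189), the compared groups only (0.131) and the mean of probe sets (0.33, adjusted p 0.747), and in 7 of the 8 fits without a compared array (0.0668 to 0.248). For Sem1, a small cap subunit, it was 0.77 higher (SE 0.13, adjusted p 0.0218). Alternatives were run for members only, so none covers Sem1. Its young 3 mM level was not stable within set B, at 1816 and 1814 after 2 days and 1203 and 1218 at time 0. Young islets at 11 mM read 1180 and 1047 in set B and 1902 and 1943 in set A. Old and young arrays of these changes lie in different array sets, and each change was taken within its own set. Age and array set therefore cannot be told apart in these 2 differences. The young 11 mM group, with 4 arrays, is split evenly between the array sets, so a search for a single array standing apart says nothing there.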

How the results depend on the processing

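Of 989 alternatives to the 71 gene results, 738 kept direction and side of the threshold, 245 were no longer past it and 6 reversed; the cause was not tested. The reversals were Psmc6 with the mean of its probe sets (0.11 in young islets at 11 against 3 mM, 0.24 at 5.5 mM, 0.35 in old islets at 5.5 mM, 0.13 at 11 mM, and -0.058 at 3 mM against fresh) and Psmd3 in old against young islets at 11 mM with no array set (-0.20).

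Of 253 alternatives to the 17 counts of called members, 177 were within 1.5 times. With no array set the counts were 8 (young 16 against 3 mM), 0 (young 5.5 against 3 mM), 1 (old 5.5 against 3 mM), 6 (old 11 against 3 mM), 0 (difference between the ages, 11 against 3 mM), 0 (fresh, old against young), 4 (young 11 mM against fresh), 0 (old 11 mM against fresh), 14 (old 3 mM against fresh), 2 (4 h), 23 (young 3 mM against fresh) and 1 (difference between the ages in that step). With the mean of probe sets they were 6 (young 11 against 3 mM), 1 (5.5 against 3 mM at each age), 0 (difference between the ages), 2 (fresh), 1 (young 11 mM against fresh) and 4 (young 3 mM against fresh). With no filter they were 0 (difference between the ages) and 4 (4 h), and with no trend 2 (young 5.5 against 3 mM), 0 (difference between the ages), 1 (old 11 mM against fresh) and 4 (4 h). With the compared groups only they were 9 (young 16 against 3 mM), 0 (young 5.5 against 3 mM), 0 (difference between the ages), 1 (old against young at 11 mM), 0 (old 11 mM against fresh) and 1 (4 h).

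With the replicate block the counts were 2 (difference between the ages, 11 against 3 mM), 2 (old against young at 11 mM), 1 (young 11 mM against fresh) and 10 (old 11 mM against fresh); in cultured young islets of set B and the time course, where the numbers pair arrays, the block moved no count by more than 1.5 times.

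Leaving out 1 array gave 8 to 12 (young 16 against 3 mM), 6 to 11 (11 against 3 mM), 0 to 3 (5.5 against 3 mM), 0 to 0 (16 against 11 mM), 0 to 3 (old 5.5 against 3 mM), 5 to 10 (old 11 against 3 mM), 0 to 1 (difference between the ages), 0 to 4 (fresh), 1 to 6 (old against young at 11 mM), 0 to 1 (young 11 mM against fresh), 1 to 10 (old 11 mM against fresh), 11 to 20 (old 3 mM against fresh), 2 to 3 (4 h), 5 to 8 (young 3 mM against fresh) and 0 to 0 (1 h and both differences between the ages against fresh). A group left with 1 array is assumed to vary like the others. Intensity near background limits the immunoproteasome and Psmd9.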
